A study of Mus musculus with 6 samples.

Results

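The 28 genes described here are the mevalonate and sterol enzymes, the SREBP control genes, and the sterol carrier Stard4 and esterifying enzyme Soat1. They were chosen by symbol from the 17459 genes of the count table. All 28 had counts in the table, and all 28 passed the filter on low counts that left 13490 genes for testing. Cholesterol is made in animal cells from acetyl-CoA through mevalonate, farnesyl diphosphate, squalene and lanosterol. The transcription factor SREBP2, the product of Srebf2, drives the genes of this route. SREBP2 sits in the endoplasmic reticulum bound to its escort SCAP. When sterols are scarce the pair moves to the Golgi, where the site-1 and site-2 proteases (Mbtps1 and Mbtps2) cut the factor free, and when sterols are plentiful the INSIG proteins hold SCAP back. In the adult brain, microglia take up and export the cholesterol of myelin debris, while astrocytes and oligodendrocytes are the main makers of sterols.

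The libraries came from brain microglia of male C57BL/6J mice with a labelled age of 8 weeks. Conditional knockout mice (cKO) were Mir137loxP/loxP;Tmem119-CreERT2, and their controls (cWT) were Mir137+/+;Tmem119-CreERT2. Both genotypes carried the Cre, which the microglial Tmem119 gene drives and tamoxifen activates, and tamoxifen was given on 7 days in a row from 7 to 8 weeks of age. RNA sequencing gave 3 cKO and 3 cWT libraries. The labels name 4 mice in the isolation without tying them to replicates. The p-values therefore rest on the variation among these libraries, and part of it may be technical.

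Total estimated counts ranged from 12068698 to 15212806 in cKO and from 16503817 to 17482042 in cWT. Single members had between 35 counts (Hsd17b7) and 2522 counts (Mbtps1) in a library. For Mir137 itself the authors' deposited table lists a mean of 0, so these values do not check its deletion. Microglial markers were abundant in every library, with a summed level for 10 of them of 49950 to 56960 CPM in cKO and 37780 to 40150 CPM in cWT, where 5 rose and 4 fell. CPM are TMM-scaled counts relative to library size. Markers of other cells were also present and differed by genotype. The 8 choroid plexus and ependymal markers summed to 10440 to 14100 CPM in cKO and 2153 to 2425 CPM in cWT, and all 8 rose. Most of each sum came from Ttr, at 12230, 13870 and 10240 CPM in cKO and 2246, 2328 and 2073 CPM in cWT. The rise of Kl was just past the threshold (edgeR adjusted p = 0.04955), and its libraries overlapped. The 8 monocyte and neutrophil markers summed to 11250 to 15920 CPM in cKO and 3857 to 4522 CPM in cWT, with 6 higher and 1 lower. Astrocyte markers summed to 422 to 655 CPM in cKO and 401 to 421 CPM in cWT, with 3 of 10 higher. Oligodendrocyte markers summed to 322 to 478 CPM in cKO and 292 to 299 CPM in cWT, with 7 of 10 higher and 1 lower. Endothelial markers summed to 1959 to 2387 CPM in cKO and 1434 to 1754 CPM in cWT, with 3 of 10 higher and 5 lower. Border-associated macrophage markers summed to 796 to 983 CPM in cKO and 813 to 1024 CPM in cWT, with 5 of 8 higher and 1 lower. The 10 neuronal markers summed to 24.7 to 31.8 CPM in cKO and 15.9 to 20.2 CPM in cWT, most of it from Stmn2. Of the 4 with enough counts to test, Stmn2 and Tubb3 rose, by 0.59 and 1.84 on the log2 scale. Among the others, Nefl was at 0 in 4 libraries, and Rbfox3, Syt1, Slc17a7 and Gad2 were each at 0 in 2. These counts are without the length and GC offsets described below, where the counts with them are given. The part of these cells in each result below was not tested. In bulk RNA, fewer cells of a type and less RNA per cell cannot be told apart.

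The 28 genes moved in both directions, with 11 higher and 9 lower in cKO and 8 not called. The call is an adjusted p under 0.05 in edgeR's quasi-likelihood test, adjusted over all genes tested. The 20 calls are 71.4% of the members, against 72.1% of all 13490 genes (35.6% higher, 36.5% lower), so the share called was close to the background. Counts by role and by list below stand against these shares. The genotypes did not overlap for 21 members (11 above and 10 below), against 74.6% of all genes (36.7% above, 37.9% below). The median log2 fold change was 0.08 in the members and -0.02 over all genes tested. The summed level of the members was 849 to 877 CPM in cKO and 860 to 869 CPM in cWT, so the ranges overlapped. On the raw scale the same genes held 0.0731% to 0.0763% of all counts in cKO and 0.0980% to 0.101% in cWT. With libraries scaled by total count alone the median of all genes stood at -0.42, and fold changes are given on the TMM scale.

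The direction went with the length of the transcript. Among the 9 members with a principal transcript under 2500 bases, 8 rose and 0 fell. Among the 19 of 2500 bases or more, 3 rose and 9 fell. The matching shares of all genes on either side of 2500 bases were not counted, so these counts do not set the members apart. Across the 28 genes the Spearman correlation of log2 fold change with length was -0.79, and across 13399 genes with a known length it was -0.72. Genes share libraries and are not independent replicates, so these are descriptions. The members and lists below are therefore also given with offsets, which take out of each library a smooth trend of its counts on transcript length and GC content. The offsets left a correlation of -0.05 in the members and -0.05 over all genes. With them 7 members rose and 4 fell, against 57.2% of 13399 genes called (27.8% higher, 29.4% lower). Of the cell markers above, those of monocytes and neutrophils then had 1 higher and 4 lower. Border-associated macrophage markers had 3 higher and 3 lower, and microglial markers 3 higher and 5 lower. Choroid plexus and ependymal markers still had 7 higher and 0 lower, and oligodendrocyte markers 7 higher and 1 lower. Astrocyte markers had 6 higher and 0 lower, endothelial markers 1 higher and 6 lower, and of 4 neuronal markers 1 was higher.

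**Figure D1:**
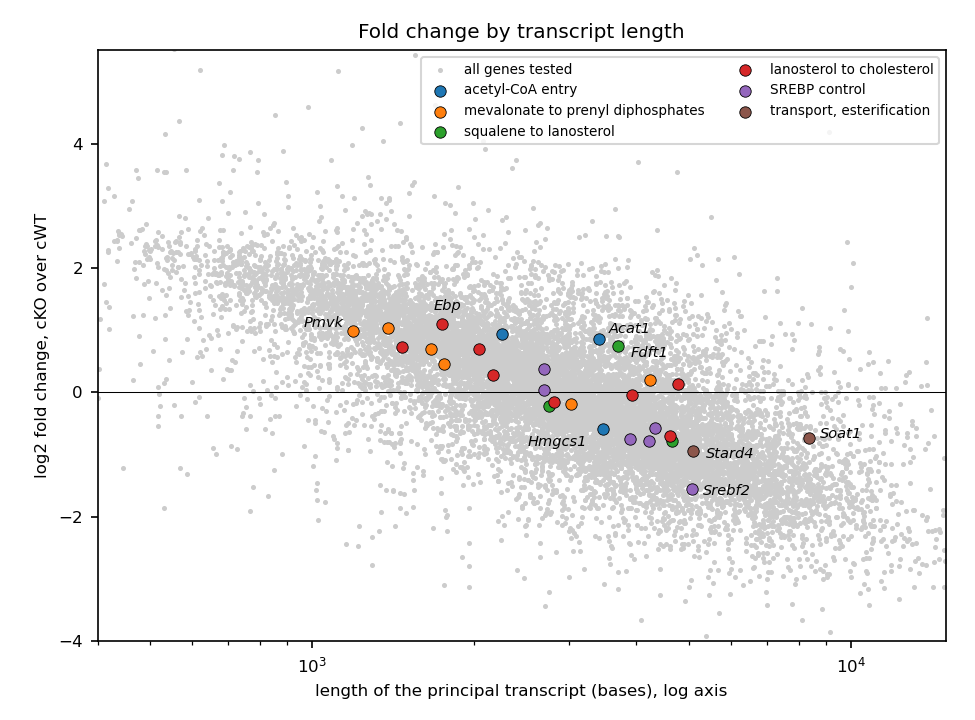
Log2 fold change of cKO over cWT (vertical axis) against the length of the principal transcript in bases (horizontal log axis), for all genes tested (grey) and the 28 members, coloured by role. Short members such as Pmvk and Ebp lie above 0 and long members such as Srebf2 and Stard4 below it, along the slope of all genes, and 87 of 13399 genes lie outside the axes.

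Of the 20 called members, 7 had the same call under each of the 14 alternative fits listed under processing, including both versions of the offsets. Acat1, Acat2, Fdft1 and Ebp were higher in cKO, and Hmgcs1, Srebf2 and Mbtps2 were lower. The other 13 calls were lost or turned in at least 1 of those fits.

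Without offsets, Srebf2 had the largest change among the SREBP control genes and among all 28 members (chromosome 15, 82147269 to 82205379, GRCm38). It had 18.9, 24.6 and 29.2 CPM in the cKO libraries, against 69.3, 74.2 and 71.4 CPM in the cWT libraries. The highest cKO library was below the lowest cWT library by a wide margin, and the cKO libraries differed among themselves more than the cWT ones. The log2 fold change was -1.56 (SE 0.13, edgeR adjusted p = 4.89e-09). With the offsets Srebf2 was still lower, at -0.49 (SE 0.09, edgeR adjusted p = 0.000198). Fdft1 then had the largest change of the 28 genes, at 1.08, and Mbtps2 that of the control genes, at -0.63.

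The genes whose products escort and cut SREBP2 were lower as well on the TMM scale. Scap (chromosome 9, 110333288 to 110384949) had 45.1, 45.6 and 54.1 CPM in cKO and 76.4, 84.0 and 88.0 CPM in cWT. Its log2 fold change was -0.78 (SE 0.10, edgeR adjusted p = 2.56e-06). Mbtps1, the site-1 protease, had 69.6, 77.2 and 87.9 CPM in cKO and 105, 119 and 128 CPM in cWT. It fell by 0.58 on the log2 scale (SE 0.11, edgeR adjusted p = 9.08e-05). Neither group of libraries overlapped for Scap or Mbtps1, but with the offsets both stood near 0, at 0.05 and 0.03 (edgeR adjusted p = 0.603 and 0.768). Mbtps2, the site-2 protease (chromosome X, 157547822 to 157598715), had 28.5, 32.0 and 23.3 CPM in cKO and 48.5, 44.2 and 48.8 CPM in cWT. Its log2 fold change was -0.76 (SE 0.12, edgeR adjusted p = 2.09e-05), and it was much the same with the offsets, at -0.63 (edgeR adjusted p = 1.75e-05).

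Neither retention factor fell on the TMM scale. Insig1, which is itself a target of SREBP2 and so is often read as a sign of its activity, had 17.8, 23.2 and 20.04 CPM in cKO and 21.2, 19.96 and 18.9 CPM in cWT. The groups overlapped, and the log2 fold change was 0.03 with an interval of -0.25 to 0.30 at 95% confidence (edgeR adjusted p = 0.869). With the offsets it stood at -0.14 (edgeR adjusted p = 0.320). With libraries scaled by total count alone Insig1 was lower, at -0.37 (edgeR adjusted p = 0.0224), where the median of all genes was -0.42. Insig2, which does not depend on SREBP2 in the same way, had 59.7, 63.9 and 49.3 CPM in cKO and 47.3, 43.3 and 42.6 CPM in cWT. It rose by a log2 change of 0.37 (SE 0.11, edgeR adjusted p = 0.00549), a direction that turned to -0.02 with libraries scaled by total count alone. With the offsets Insig2 was not called, at 0.15 (edgeR adjusted p = 0.165), and with offsets from the median of each gene's annotated transcripts (1252 in place of 2697 bases for Insig2) it was lower at -0.76 (edgeR adjusted p = 4.15e-07). In all, 4 of the 6 control genes fell and 1 rose, against 36.5% and 35.6% of all genes, with a median of -0.67. Their summed level was 240 to 267 CPM in cKO and 368 to 397 CPM in cWT. With the offsets 2 fell, 0 rose, and the median was -0.06.

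**Figure D2:**
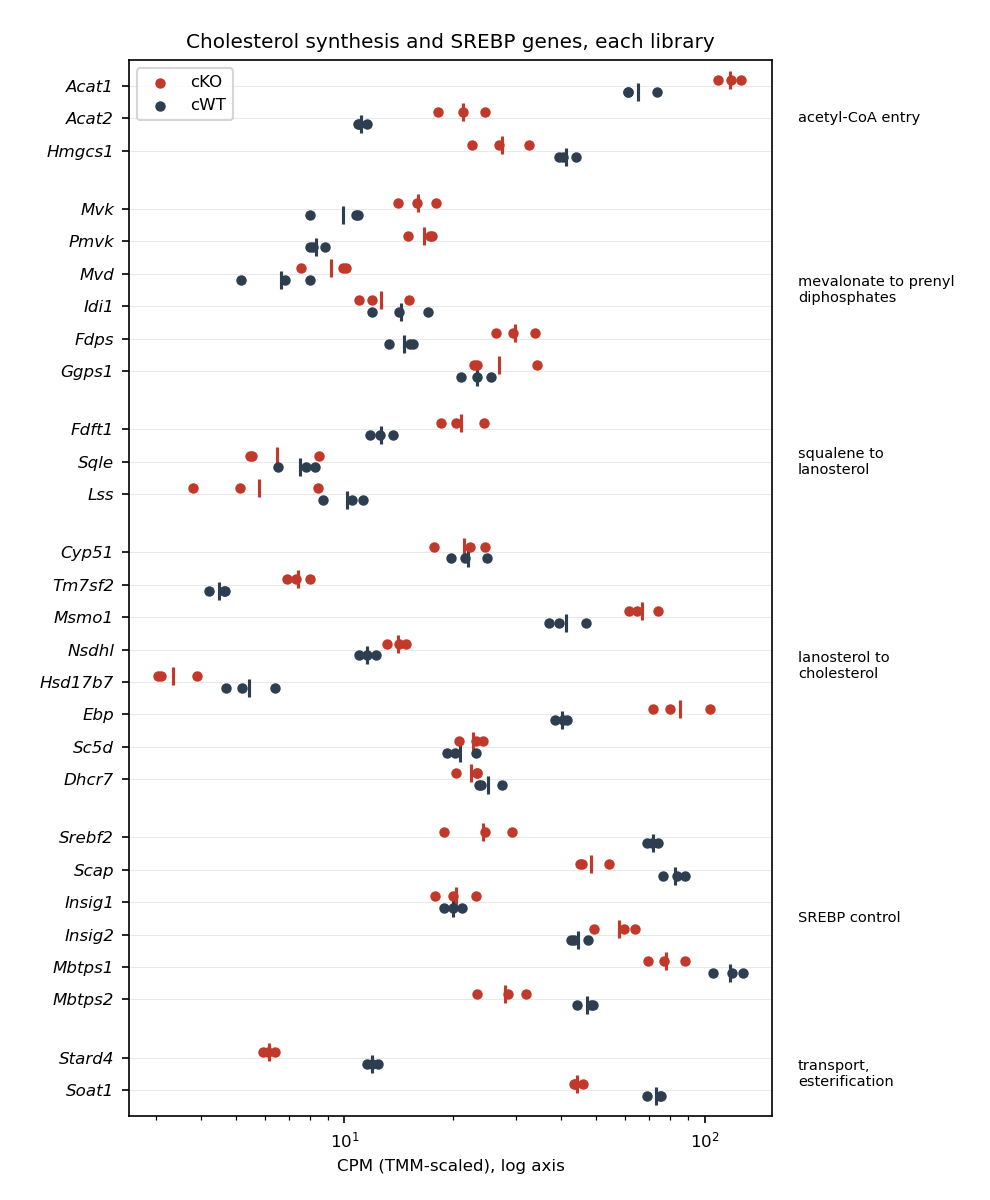
CPM on the TMM scale (horizontal log axis) of the 28 genes in each library, with cKO above cWT in each row, points for libraries and bars for the mean of 3. The rows of Srebf2, Scap, Mbtps1 and Mbtps2 show cKO below cWT without overlap, while those of Insig1, Cyp51 and Sqle overlap.

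Promoter sequences were read to see which members carry the letters that SREBP2 and its partner NF-Y are known to bind. RefSeq promoters of GRCm38.p6, from 250 bases before the start to 50 after it, were available for 23 of the 28 genes. The sterol regulatory element was searched as TCACNCCAC and the NF-Y box as CCAAT, both on either strand. The exact sterol element was in 1 of 23 members (Hmgcs1) and in 1.38% of 10266 tested genes with a promoter. With up to 1 letter changed it was in 10 of 23 members (43.5%) and in 29.14% of those genes. CCAAT was in 19 of 23 members (82.6%), against 42.68% of those genes. The E-box form TCACGTGA was in 0 of 23 members and in 2.12% of those genes. By direction, CCAAT was in 7 of 8 members that rose, 5 of 8 that fell and 7 of 7 not called. Over all tested genes with a promoter it was in 44.1% of those that rose, 40.8% of those that fell and 43.4% of those not called. By role, it was in 8 of 8 enzymes after lanosterol, 5 of 5 mevalonate enzymes with a promoter and 3 of 6 SREBP control genes. A match describes letters in the window and is not shown to be a bound site. The promoters of Srebf2 (chr15:82147019-82147318, plus strand), the most changed member without offsets, and of the feedback gene Insig1 (chr5:28071162-28071461, plus strand), which was not called, are shown 5′ to 3′. Capitals mark CCAAT or its complement ATTGG and the sterol element with up to 1 letter changed.
Srebf2: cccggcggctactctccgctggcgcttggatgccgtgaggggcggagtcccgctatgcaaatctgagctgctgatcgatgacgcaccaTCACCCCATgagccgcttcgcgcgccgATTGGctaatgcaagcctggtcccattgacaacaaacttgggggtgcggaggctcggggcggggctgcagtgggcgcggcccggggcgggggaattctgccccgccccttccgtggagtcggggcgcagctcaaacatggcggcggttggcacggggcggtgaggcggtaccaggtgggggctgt
Insig1: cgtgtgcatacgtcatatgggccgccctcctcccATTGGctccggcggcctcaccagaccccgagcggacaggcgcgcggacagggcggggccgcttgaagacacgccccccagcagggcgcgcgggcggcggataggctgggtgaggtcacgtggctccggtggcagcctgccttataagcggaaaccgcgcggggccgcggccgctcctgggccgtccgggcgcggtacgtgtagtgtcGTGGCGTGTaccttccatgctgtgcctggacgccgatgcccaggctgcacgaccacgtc

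The deleted microRNA pairs with targets through bases 2 to 8 of its mature strand, in capitals here, from RefSeq on GRCm38.p6 (chr3:118433901-118433923, plus strand).
mmu-miR-137-3p: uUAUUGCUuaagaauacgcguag
A match to this seed, AGCAATA, was in the annotated 3' UTR of 3 of 28 members (10.71%) and of 9.44% of 12916 tested genes with a 3' UTR. The median 3' UTR was 1507.5 bases in the members and 1032 in the tested genes, so the shares are not at equal length. The stricter form followed by A was in none of these 3 genes. Insig1 and Hsd17b7 have 1 match each and Stard4 has 2, and all carry the letters the deleted microRNA can pair with. The matches of Insig1 and Hsd17b7 are shown with 11 bases on either side, and those of Stard4 are not shown.
Insig1: gaggcacactcAGCAATActgtgtcagcc
Hsd17b7: atgaattattaAGCAATAttcaatgctca
None of the 3 was higher in cKO, since Insig1 stood at 0.03, Hsd17b7 at -0.71 and Stard4 at -0.95 on the log2 scale. In the 300-base promoters the seed match was in 0 of 23 members and in 1.44% of tested genes.

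The 3 genes at the entry to the pathway split. Acat1, the mitochondrial acetyl-CoA thiolase that serves ketone body metabolism (chromosome 9, 53580522 to 53610350), had 126, 118 and 109 CPM in cKO and 73.8, 61.3 and 61.1 CPM in cWT. Each cKO library exceeded each cWT library, and the log2 fold change was 0.85 (SE 0.10, edgeR adjusted p = 7.14e-07). Acat2, the cytosolic thiolase that condenses acetyl-CoA for sterol synthesis (chromosome 17, 12943042 to 12960725), had 24.5, 18.1 and 21.3 CPM in cKO and 10.96, 11.6 and 10.9 CPM in cWT. It rose by a log2 change of 0.93 (SE 0.14, edgeR adjusted p = 1.05e-05). With the offsets Acat1 stood at 0.90 and Acat2 at 0.54 (edgeR adjusted p = 6.94e-09 and 0.00137).

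Hmgcs1, the cytosolic HMG-CoA synthase that commits acetyl-CoA units to mevalonate (chromosome 13, 119690351 to 119708260), went the other way. It had 32.6, 26.9 and 22.6 CPM in cKO and 40.4, 43.9 and 39.3 CPM in cWT, with no overlap. Its log2 fold change was -0.59 without offsets (SE 0.13, edgeR adjusted p = 0.000453) and -0.59 with them (SE 0.10, edgeR adjusted p = 8.27e-05). Its promoter (chr13:119690101-119690400, plus strand) is shown because it holds the exact sterol element TCACCCCAC, which begins at position -137 from the start, and 4 copies of ATTGG. Capitals mark the same motifs as above.
Hmgcs1: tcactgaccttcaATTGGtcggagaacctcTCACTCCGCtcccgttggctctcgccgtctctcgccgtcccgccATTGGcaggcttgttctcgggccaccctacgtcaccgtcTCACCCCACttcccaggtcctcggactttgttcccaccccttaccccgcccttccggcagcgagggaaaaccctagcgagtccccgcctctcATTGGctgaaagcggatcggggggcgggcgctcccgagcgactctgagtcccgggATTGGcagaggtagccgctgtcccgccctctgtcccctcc

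Of the 6 genes from mevalonate to the prenyl diphosphates, 4 rose and 0 fell, against 35.6% and 36.5% of all genes. Their median was 0.58 and their summed level 107 to 114 CPM in cKO and 73.3 to 80.0 CPM in cWT. Mvk, the mevalonate kinase, had 14.1, 15.9 and 17.99 CPM in cKO and 8.03, 10.8 and 10.9 CPM in cWT, a log2 change of 0.70 (SE 0.16, edgeR adjusted p = 0.000873). Pmvk, the next kinase, had 15.0, 17.5 and 17.3 CPM in cKO and 8.83, 8.19 and 8.04 CPM in cWT, a log2 change of 0.99 (SE 0.15, edgeR adjusted p = 8.82e-06). Fdps, the farnesyl diphosphate synthase, had 26.4, 29.3 and 33.8 CPM in cKO and 15.5, 15.2 and 13.3 CPM in cWT, a log2 change of 1.03 (SE 0.13, edgeR adjusted p = 1.22e-06). These 3 genes showed no overlap between the genotypes. Mvd, the decarboxylase that makes isopentenyl diphosphate, had 7.59, 9.92 and 10.1 CPM in cKO and 5.16, 6.86 and 8.04 CPM in cWT, which overlapped. Its log2 fold change of 0.46 was just past the threshold (edgeR adjusted p = 0.0482) and lost its call without cKO replicate 2 or 3 or cWT replicate 1 or 2, with edgeR adjusted p from 0.0939 to 0.224. In the authors' deposited table it had an adjusted p of 0.0850.

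None of those 4 rises held with the offsets, where Mvk stood at 0.17, Pmvk at -0.06, Mvd at 0.02 and Fdps at 0.06. Idi1, the isomerase that makes the allylic isoprene unit, had 15.1, 10.98 and 11.9 CPM in cKO and 17.02, 14.2 and 11.9 CPM in cWT, and was not called (log2 fold change -0.19, edgeR adjusted p = 0.328). Ggps1, which makes geranylgeranyl diphosphate for protein prenylation, had 34.2, 22.9 and 23.3 CPM in cKO and 25.4, 23.4 and 21.1 CPM in cWT, with cKO replicate 1 alone above the rest (0.20, edgeR adjusted p = 0.241). With the offsets Idi1 was lower at -0.37 (edgeR adjusted p = 0.0333) and Ggps1 higher at 0.45 (edgeR adjusted p = 0.00310). Neither was called with the median-transcript offsets, at -0.19 and -0.07. Among the 6 genes the offsets gave 1 higher, 1 lower and a median of 0.04.

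Of the 3 steps from squalene synthesis to lanosterol, 1 rose, 1 fell and 1 was not called, and the genes were not tested against each other. Fdft1, the squalene synthase that takes farnesyl diphosphate into sterols (chromosome 14, 63145150 to 63181687), had 20.4, 18.5 and 24.4 CPM in cKO and 11.8, 13.6 and 12.5 CPM in cWT. It rose by a log2 change of 0.74 (SE 0.14, edgeR adjusted p = 0.00012), and by 1.08 with the offsets (SE 0.12, edgeR adjusted p = 4.30e-07), the largest offset value among the 28 genes. Sqle, the squalene epoxidase and an oxygen-requiring control point, had 5.45, 8.50 and 5.54 CPM in cKO and 7.82, 8.29 and 6.52 CPM in cWT. Its groups overlapped (log2 fold change -0.22, interval -0.66 to 0.23, edgeR adjusted p = 0.370, and -0.33 with the offsets, edgeR adjusted p = 0.177). Lss, the cyclase that forms lanosterol, had 3.80, 5.14 and 8.43 CPM in cKO and 11.3, 8.70 and 10.5 CPM in cWT. The highest cKO library came close to the lowest cWT library, and the log2 fold change was -0.79 (SE 0.23, edgeR adjusted p = 0.00573), with no call at -0.08 with the offsets (edgeR adjusted p = 0.790). The summed level of the 3 genes was 29.6 to 38.3 CPM in cKO and 29.6 to 30.9 CPM in cWT.

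Among the 8 enzymes from lanosterol to cholesterol, 3 rose, 1 fell and 4 were not called, with a median of 0.20. Ebp, the sterol isomerase that shifts the ring double bond (chromosome X, 8185329 to 8193512), had 80.2, 71.8 and 103 CPM in cKO and 38.5, 40.5 and 41.4 CPM in cWT. Its log2 change of 1.09 was the largest rise among the 28 genes without offsets (SE 0.12, edgeR adjusted p = 2.26e-07). With the offsets it was 0.32 (SE 0.10, edgeR adjusted p = 0.0105). Msmo1, the C4-methylsterol oxidase, had 74.2, 64.9 and 61.7 CPM in cKO and 46.8, 37.1 and 39.4 CPM in cWT, a log2 change of 0.70 (SE 0.11, edgeR adjusted p = 1.85e-05). Tm7sf2, a sterol C14 reductase, had 6.91, 7.35 and 8.05 CPM in cKO and 4.63, 4.20 and 4.65 CPM in cWT, a log2 change of 0.73 (SE 0.20, edgeR adjusted p = 0.00316). These 3 showed no overlap, but with the offsets Msmo1 and Tm7sf2 were not called, at 0.05 and -0.08. With the median-transcript offsets Msmo1 was higher, at 0.23 (edgeR adjusted p = 0.0245). Over the 8 enzymes the offsets gave 2 higher, 0 lower and a median of -0.02. The Ebp promoter (chrX:8193463-8193762, minus strand) is shown beside those of Srebf2 and Hmgcs1 as that of the member that rose most without offsets. It has 2 copies of ATTGG and 0 matches to the sterol element.
Ebp: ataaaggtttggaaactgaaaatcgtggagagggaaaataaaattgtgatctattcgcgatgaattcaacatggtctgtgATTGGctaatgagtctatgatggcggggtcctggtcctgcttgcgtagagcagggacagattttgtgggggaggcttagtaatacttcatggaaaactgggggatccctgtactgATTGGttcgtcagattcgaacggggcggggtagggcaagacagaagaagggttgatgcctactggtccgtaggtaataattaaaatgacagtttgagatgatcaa

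Hsd17b7, the 3-keto-sterol reductase, was among the members with the fewest counts, at 3.89, 3.10 and 3.04 CPM in cKO and 4.68, 6.399 and 5.21 CPM in cWT. It fell by 0.71 on the log2 scale (SE 0.24, edgeR adjusted p = 0.0134), was not called without cWT replicate 2 (edgeR adjusted p = 0.0840), and stood at -0.22 with the offsets (edgeR adjusted p = 0.437). With the median-transcript offsets it was lower, at -0.56 (edgeR adjusted p = 0.0464). Cyp51, the lanosterol demethylase, had 22.3, 24.6 and 17.7 CPM in cKO and 24.8, 19.7 and 21.6 CPM in cWT, a log2 fold change of -0.04 with an interval of -0.33 to 0.26. It stood at 0.25 with the offsets (edgeR adjusted p = 0.0870) and was higher at 0.46 with the median-transcript offsets (edgeR adjusted p = 0.00308). Sc5d, the sterol C5 desaturase, had 20.8, 23.2 and 24.2 CPM in cKO and 20.3, 19.2 and 23.1 CPM in cWT (0.13, interval -0.14 to 0.39). With the offsets Sc5d was higher at 0.65 (edgeR adjusted p = 0.000159), and not called at 0.27 with the median-transcript offsets (edgeR adjusted p = 0.0601). The groups did not overlap for Nsdhl and Dhcr7, yet neither passed the test. Nsdhl, the C4 decarboxylase, had 13.1, 14.8 and 14.2 CPM in cKO and 11.5, 12.2 and 10.98 CPM in cWT (0.28, edgeR adjusted p = 0.0889, turning to -0.27 with the offsets, also not called). Dhcr7, the final reductase of the route through 7-dehydrocholesterol, had 23.4, 20.5 and 23.4 CPM in cKO and 23.6, 27.4 and 24.0 CPM in cWT (-0.16, edgeR adjusted p = 0.251, and -0.15 with the offsets).

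**Figure D3:**
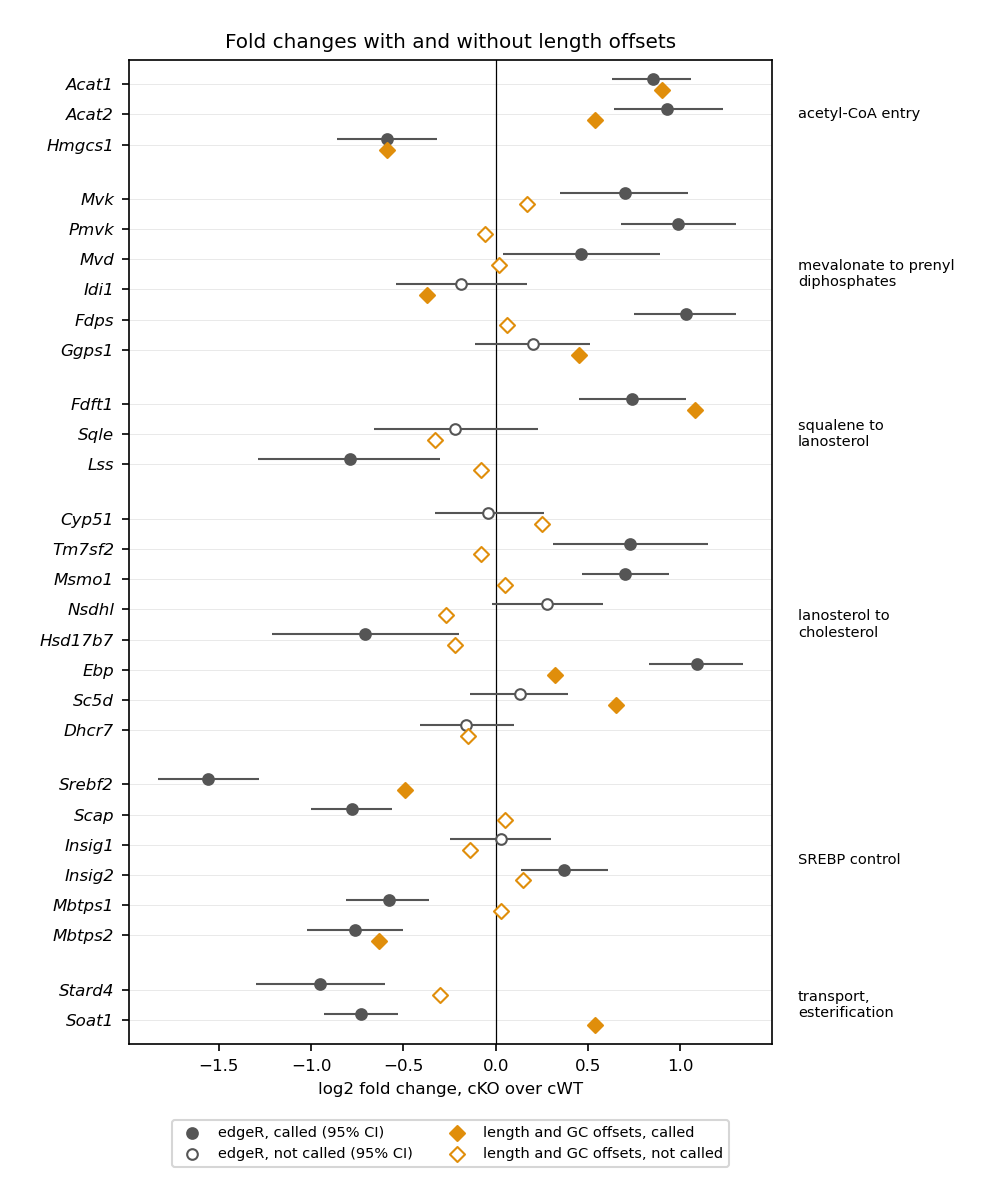
Log2 fold changes of cKO over cWT for the 28 genes, from edgeR (circles, bars for 95% intervals) and from edgeR with length and GC offsets (diamonds), filled where the adjusted p was under 0.05. Srebf2, Mbtps2 and Hmgcs1 lie left of 0 and Acat1, Acat2, Fdft1 and Ebp right of 0 in both fits. Soat1 changes side and is filled on both, and others such as Pmvk, Scap and Mbtps1 cross 0 to an open diamond.

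Both genes of sterol transport and esterification fell on the TMM scale. Stard4, a soluble carrier that moves cholesterol between membranes and a known SREBP2 target, had 6.42, 5.93 and 6.15 CPM in cKO and 12.4, 11.5 and 11.9 CPM in cWT. The replicates lay close together and the log2 fold change was -0.95 (SE 0.17, edgeR adjusted p = 5.10e-05). It was not called with the offsets at -0.30 (edgeR adjusted p = 0.107), and with the median-transcript offsets, where 941 bases stand in place of 5097, it was lower at -2.28 (edgeR adjusted p = 3.91e-10). Soat1, which esterifies cholesterol for storage in droplets (chromosome 1, 156428108 to 156474328), had 43.2, 43.8 and 45.8 CPM in cKO and 69.2, 74.99 and 75.8 CPM in cWT. Its log2 fold change was -0.73 (SE 0.10, edgeR adjusted p = 1.96e-06) and turned to 0.54 with the offsets (SE 0.09, edgeR adjusted p = 3.66e-05). Its annotated transcript, of 8371 bases, is the longest among the 28 genes.

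Levels were also compared between the 28 genes per kilobase of principal transcript, a scale that inherits any error in the annotated length. In cKO the most abundant were Ebp at 48.8 ± 9.31, Acat1 at 34.6 ± 2.53 and Msmo1 at 32.8 ± 3.17 CPM per kilobase (SD, n = 3). In cWT they were Mbtps1 at 27.0 ± 2.60, Ebp at 23.0 ± 0.869 and Msmo1 at 20.1 ± 2.48 CPM per kilobase (SD, n = 3). In cKO the libraries of Acat1 and Msmo1 overlapped and Ebp stood above both. In cWT Ebp, Msmo1 and Scap each overlapped with the next gene, the last of them with Acat1. Srebf2 ranked 22 of 28 in cKO at 4.78 ± 1.02 and 7 of 28 in cWT at 14.1 ± 0.485 CPM per kilobase. From rank 7 to rank 23 in cKO each gene overlapped with the next. Hsd17b7 was the lowest in both genotypes, at 0.725 ± 0.104 in cKO and 1.18 ± 0.191 CPM per kilobase in cWT.

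Of the 20 members called here, 19 were called in the same direction at an adjusted p under 0.05 in the authors' deposited table, the exception being Mvd. The log2 fold changes of all 28 had the same sign in that table.

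Genes around this pathway gave a mixed picture. Of 15 genes of SREBP1 and fatty acid synthesis, the sister branch that makes fatty acids, 10 fell and 1 rose, with a median of -0.62. Over all genes 36.5% fell and 35.6% rose. The phosphatidate phosphatase Lpin1 averaged 13.5 ± 2.49 CPM in cKO and 55.5 ± 5.73 CPM in cWT (SD, n = 3 each), which is -2.04 on the log2 scale. The acyltransferase Gpam fell by 1.62 and the fatty acid synthase Fasn by 1.69. With the offsets 5 of the 15 fell and 3 rose, against 29.4% and 27.8% of all genes, with a median of 0.01. Lpin1 and Gpam were then still lower at -1.11 and -0.58 and Fasn stood at 0.17. The transcripts of this list have a median of 4393 bases, against 3216 in the 28 members.

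Of 28 genes of sterol-dependent degradation and export from the endoplasmic reticulum, 10 rose and 9 fell (median -0.11). The GTPase Sar1b, which starts the COPII coat that carries cargo such as SCAP, rose by 1.63, whereas the coat components Sec31a and Sec24c fell by 1.65 and 1.24. With the offsets Sar1b was not called at 0.16 (edgeR adjusted p = 0.0557) and Sec31a and Sec24c were lower at -1.08 and -0.59, and the list had 8 higher and 6 lower with a median of 0.07. Of 15 genes that use isoprenoids, 5 rose and 4 fell (median 0.15). Rabggtb, a subunit of the enzyme that prenylates Rab proteins, rose by 1.34 and the CAAX protease Rce1 by 1.27, while the Rab escort gene Chml fell by 1.82. They stood at 0.12, 0.45 and -0.86 with the offsets, and the first was then not called, while the list had 4 higher and 2 lower with a median of 0.10.

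Of 20 genes of sterol transport inside cells, ester hydrolysis and oxysterols, 9 rose and 6 fell (median 0.14). Ch25h, which makes 25-hydroxycholesterol, an oxysterol that binds INSIG and blocks SREBP processing, had the largest change. It averaged 9.97 ± 2.37 CPM in cKO and 1.15 ± 0.277 CPM in cWT (SD, n = 3 each), and its log2 fold change was 3.10 (SE 0.27, edgeR adjusted p = 8.65e-09) and 1.99 with the offsets (edgeR adjusted p = 2.95e-06). The late endosomal cholesterol exporter Npc1 fell by 1.26 and the sterol carrier Osbp by 1.32, and both were lower with the offsets at -0.42 and -0.72. The offsets gave 6 higher and 4 lower in this list, with a median of 0.00. Of 7 genes listed as partners of sterol enzymes, 3 rose and 2 fell (median 0.16). Most feed those enzymes electrons or bind them, but Lbr is itself a sterol C14 reductase, like Tm7sf2. Lbr was lower at -0.30 (edgeR adjusted p = 0.00869), and at -0.24 with the offsets (edgeR adjusted p = 0.00705). Cyb5a, the cytochrome b5 of the endoplasmic reticulum, rose by 1.57 and the haem-binding Pgrmc1 by 0.84, and the mitochondrial form Cyb5b fell by 0.59. With the offsets they stood at -0.13, 0.02 and -0.16 and were not called, and 1 of the 7 was higher and 1 lower with a median of 0.02. Pgrmc1 also stands in the degradation and export list. The share called in either direction in these 5 lists ran from 60% to 75%, around the 72.1% of all genes. That share pools the directions, and the fatty acid list leaned lower without the offsets.

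**Figure D4:**
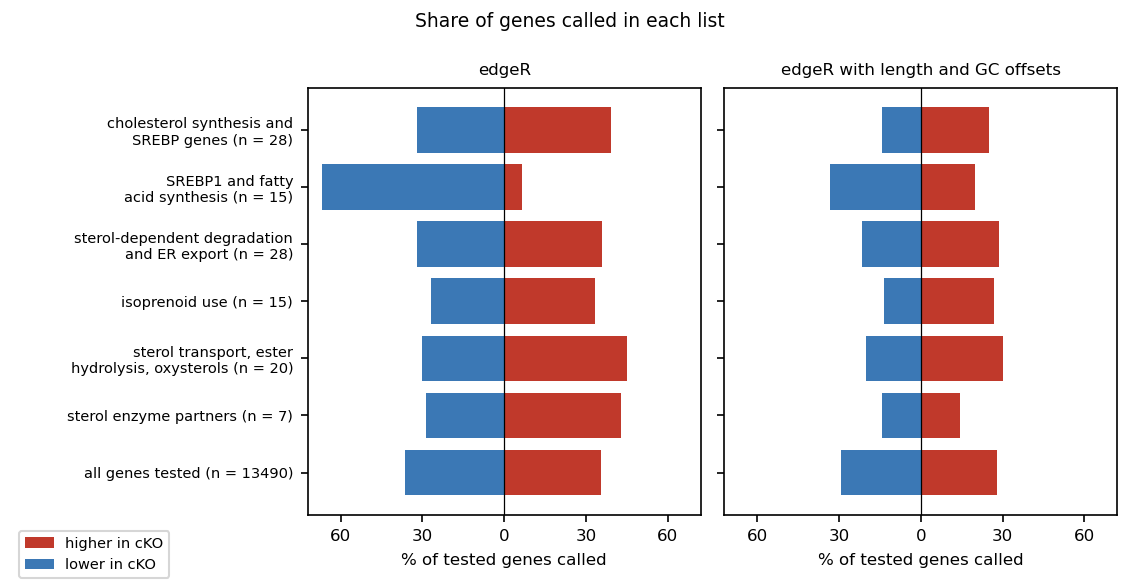
Percent of tested genes called higher (right, red) or lower (left, blue) in cKO in the 28 members, 5 related lists and all genes, from edgeR (left panel) and with length and GC offsets (right panel, 13399 genes in all). Bars for the 28 members are close to those for all genes in the left panel, and the fatty acid list leans lower there.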

How the data were processed

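The authors deposited estimated counts per gene symbol for 6 microglial libraries, without scaling. The submitters' processing notes list the tools STAR 2.7.9a, RSEM and DESeq2 and the builds GRCm38 and mm10, without saying what each did. No source used here gives the strand setting, so reads of overlapping genes cannot be separated. Counts were rounded to whole numbers. The authors' deposited comparison table holds a base mean (a signal averaged over scaled libraries), log2 fold changes, a standard error and a Wald statistic (scores), and p-values, per the file headers.

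Testing used edgeR 4.0.16 in R 4.3.3 (quasi-likelihood, two-sided, robust, TMM, genotype as the only term). Filtering by filterByExpr (minimum count 10) set aside 3969 genes, and adjustment was by Benjamini-Hochberg. Offsets came from natural splines with 5 degrees of freedom on log2 length and on GC content, from GENCODE M21 principal transcripts. On simulated counts for 13344 genes, 99% of 2-fold and 100% of 4-fold changes were recovered. The changed genes there were a small set above a minimum mean CPM, with as many up as down. Those counts held no length trend, so the recovery rate in the real libraries was not measured. The alternatives were DESeq2 1.42.0, DESeq2 size factors or library size alone in edgeR, no filter, offsets, the same with each gene's median transcript, a replicate block with and without offsets, and each of 6 libraries left out in turn, 14 in all. Each member was named. In each related list the 3 called genes with the smallest p, and the called gene with the largest change, were named. Lbr was named as well, because it is itself a sterol enzyme. Members and lists were chosen with earlier results of these data known. Intervals cover the spread between libraries only.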

Additional observations from a re-analysis of the deposited data

How the results depend on the processing

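DESeq2, DESeq2 size factors within edgeR and the replicate block changed no member's call, and the block gave 11 members higher and 9 lower. The labels do not say that replicate numbers pair the libraries. Deviations of same-numbered libraries correlated weakly, at 0.0985, 0.0335 and 0.0882, but above those of different-numbered libraries, at -0.103 to 0.0167. Without a filter on low counts Mvd alone lost its call (adjusted p = 0.0703). Leaving out each library in turn gave 10 to 11 members higher and 8 to 9 lower.
With libraries scaled by total count alone, 7 members were higher and 14 lower, and their median stood at -0.32. Insig1 then stood at -0.37 and was called lower (edgeR adjusted p = 0.0224), and Insig2 stood at -0.02 and was not called. Relative to the median of all genes (-0.42) these values are 0.05 and 0.40.
With offsets 7 members were higher and 4 lower, also with the replicate block added. Pmvk was then at -0.06, Tm7sf2 at -0.08, Scap at 0.05, Mbtps1 at 0.03, Soat1 at 0.54, Fasn at 0.17 (0.16 with the block) and Cyb5a at -0.13. Offsets from the median length and GC content of a gene's basic transcripts, an alternative chosen after seeing the data, gave 7 higher and 6 lower with a median of 0.00. There Mvk stood at -0.03, Pmvk at -0.06, Lss at 0.05, Cyp51 at 0.46, Tm7sf2 at -0.05, Scap at 0.14, Insig2 at -0.76, Mbtps1 at 0.15, Soat1 at 0.22, Fasn at 0.14, Cyb5a at -0.02 and Cyb5b at 0.03. Length and GC content changed together there and the trend was refitted, so the cause was not tested. Over all genes, total-count scaling gave 3331 higher and 6742 lower, against 4803 and 4926 with TMM.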
